A study of Gallus gallus with 4 samples.

Results

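The genes described here encode ligands, receptors and latent binding proteins of the transforming growth factor beta (TGF-beta) pathway, with 1 matrix protein named for its induction by TGF-beta. They are TGFB2, TGFB3, TGFBR1, TGFBR2, TGFBR3, TGFBI, LTBP1, LTBP2 and INHBA. They were taken as every probe set, the group of array probes that reports on 1 transcript, to which the platform annotation gives 1 of these symbols alone. All 9 genes were found, on 24 of the 27168 probe sets that carry a single symbol and are not array controls, among 13009 genes in all. The rule matched names and used no measured value, but the genes were picked with earlier results of these data known.

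Cartilage of the tibia was dissected from white leghorn chicken embryos of 2 ages, day 12 of incubation or stage 38 of the Hamburger-Hamilton series (E12) and day 14 or stage 40 (E14). At each day 1 sample was pure transient cartilage of the epiphysis (TC), the tissue later replaced by bone, and 1 was articular cartilage with some transient cartilage left on it (TC+AC). The labels name no transgene or treatment, and per the series' design text many tissues were pooled for a sample, with TC as the reference. Each of the 4 combinations was hybridized once, without a replicate, and the number of arrays limits the precision. The comparison asks how cartilage that persists at the joint surface differs from cartilage that is replaced, and the TC+AC samples hold both kinds of cartilage.

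TGF-beta ligands are secreted in a latent complex. The prodomain stays bound to the growth factor, and a latent TGF-beta binding protein can tether that complex to fibrillin-rich matrix until integrins, proteases or thrombospondin release it. The free ligand assembles TGFBR2 with TGFBR1, helped for some ligands by the co-receptor TGFBR3, and the signal passes through SMAD2 and SMAD3. In cartilage the pathway is known for holding back hypertrophy and for its part in joint and tendon formation. INHBA encodes the activin A subunit, which signals through activin receptors to the same SMADs.

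Values are intensities after quantile normalization, a scaling that gives all arrays the same distribution. They compare samples for 1 probe set and say nothing of levels between probe sets. A probe set was called above background where it exceeded a limit set by 541 probe sets designed to virus genomes (their 95th percentile), which was 18.9 in TC and 19.1 in TC+AC at E12, and 15.6 in TC and 24.6 in TC+AC at E14. The TC+AC array at E14 stood apart: its median as deposited was 13.1 against 20.6 to 23.1 on the others, and its 3' over 5' intensity ratio for beta-actin, a sign of RNA quality, was 7.48 against 1.99 to 4.01. The dissections matched their labels for hypertrophic markers, since all 4 (COL10A1, PANX3, SPP1, IBSP) were lower in TC+AC in the fit (adjusted p below 0.05, limma), and 6 of 6 cartilage markers were above background on every array. The cartilage markers were not level between the tissues: their summed intensity was 13167 in TC and 9295 in TC+AC at E12 and 33419 and 16549 at E14. Their median log2 difference was -0.49 at E12 and -1.25 at E14, and MATN1, a cartilage matrix gene, passed as lower in TC+AC (-1.93 ± 0.50, limma adjusted p = 0.044). A second MATN1 probe set, above background on every array, had 0.12 at E12 and -1.32 at E14. The part of the cartilage marker difference in the values of the TGF-beta genes was not tested. Of 5 joint and surface markers, BARX1, TPPP3 and WNT4 were higher, while the interzone gene GDF5 had a log2 difference of 0.30 ± 0.50 (SE) and ERG one of -0.08 ± 0.50, and neither passed. Another GDF5 probe set, above background on every array, had 0.40 at E12 and -1.14 at E14. Another ERG probe set had -0.20 at E12. It read 75.0 in TC at E14 and was below background in TC+AC there.

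No gene of the 9 was called different between the tissues or between the stages, and 2 of them could not be tested. The other 7 were bright enough for the test, limma's moderated linear model with tissue and stage as additive terms over 7805 genes, and 0 passed an adjusted p of 0.05 (1, INHBA, at an unadjusted p under 0.05). Over all genes tested, 1.47% passed for tissue. The largest tissue values belonged to INHBA and LTBP2, both higher in TC+AC on the arrays of both stages after quantile normalization. Under some other scalings the order at E14 turned for both genes. TGFB2, TGFB3, TGFBR1 and TGFBI differed between the tissues by less than 1 SE in the fit. After quantile normalization, both TC+AC values of the brightest probe set were above both TC values for INHBA, LTBP1, LTBP2 and TGFB3. That was 4 of the 7 genes, with 0 below, against 22.8% and 20.5% of all genes tested. In the values as deposited, TC+AC at E14 was below TC at E12 for LTBP2 (122.9 against 217.3) and TGFB3 (256.4 against 452.7). For INHBA it was below TC at E14 (35.7 against 73.8). After quantile normalization, both E14 values were above both E12 values for TGFB2 (12.7% of all genes) and below them for TGFBI and TGFBR1 (19.6%). As deposited, TGFB2 in TC+AC was lower at E14, at 178.5 against 325.6 at E12. The residual of the limma fit is the disagreement between the 2 stages' differences, with 1 degree of freedom of its own and 27.0 from a prior shared across genes. Spread between embryos or between dissections does not enter it.

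**Figure D1:**
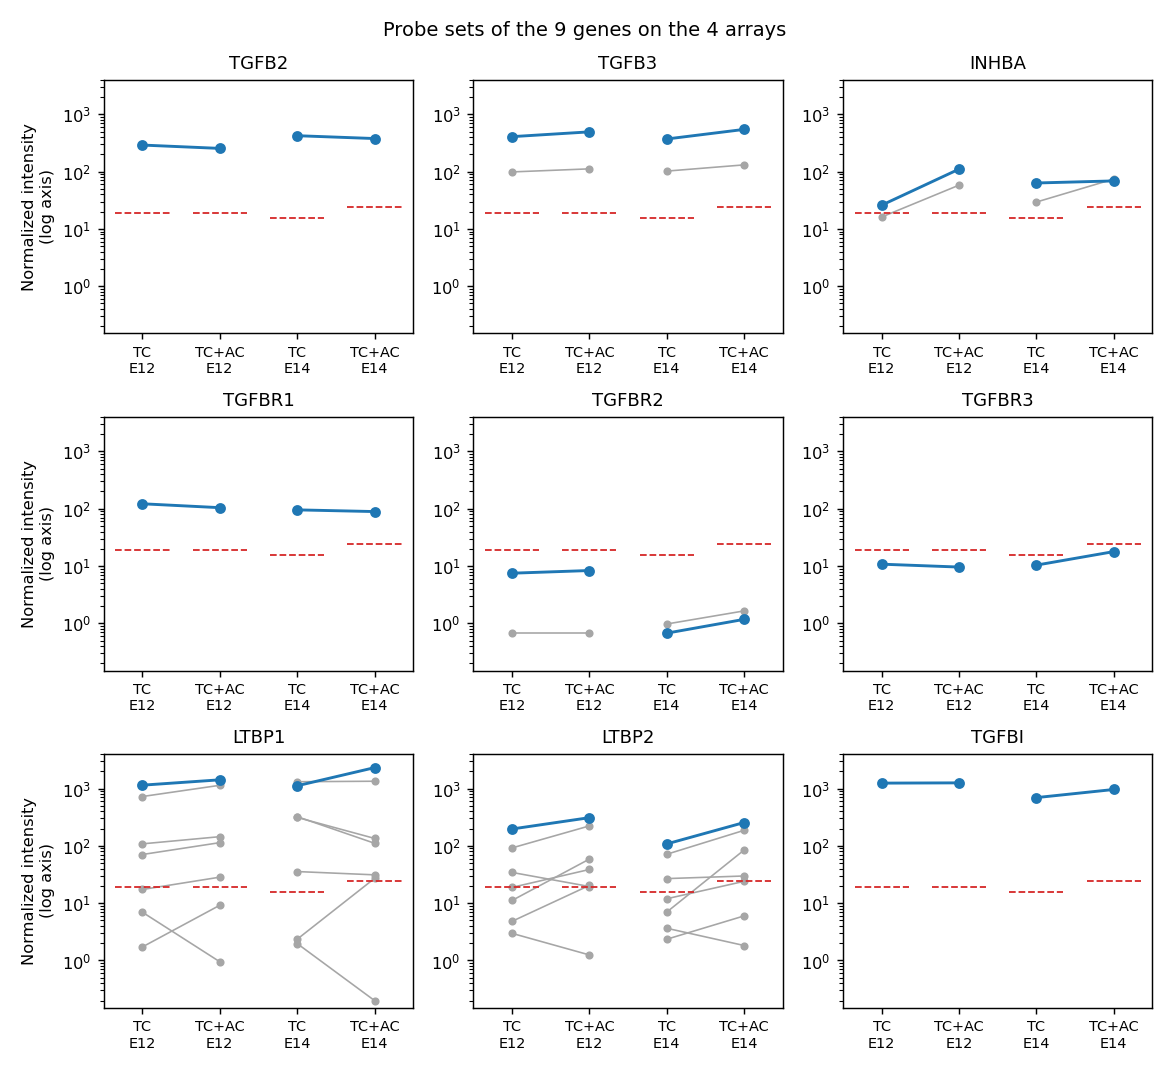
Normalized intensity (log axis) of each probe set of the 9 genes on the 4 arrays, with the brightest probe set of a gene in blue, the others in grey, lines joining TC and TC+AC of 1 stage, and the background of each array as a red dashed mark. TGFB2, TGFB3, TGFBR1 and TGFBI lie well above background, TGFBR2 and TGFBR3 lie below it on every array, and the 7 probe sets of LTBP1 and of LTBP2 spread widely.

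Of the ligand genes, TGFB2, whose product is made by many mesenchymal cells, was measured by 1 probe set at 290.05 in TC and 254 in TC+AC at E12 and at 422 and 377 at E14. After quantile normalization both E14 values were above both E12 values, and TC was the higher tissue at each stage by a small margin. The tissue difference on the log2 scale was -0.19 at E12 and -0.16 at E14, with a fitted value of -0.18 ± 0.50 (SE, limma adjusted p = 0.92, 4 arrays) and a 95% interval of -1.19 to 0.84. From E12 to E14 the log2 difference was 0.54 in TC and 0.57 in TC+AC (0.56 ± 0.50, limma adjusted p = 0.93). As deposited, TC+AC read 325.6 at E12, beside 320.6 in TC, and 178.5 at E14, the lowest of the 4. The stage difference in TC+AC was -0.87 as deposited, -0.074 centred on medians and -0.72 on hybridization controls. The medians of all genes in these settings were -1.34, -0.55 and -1.19.

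TGFB3, the isoform gene known in chick joints and tendons, had a brightest probe set at 407 in TC and 493 in TC+AC at E12 and at 370.3 and 544 at E14. After quantile normalization TC+AC was the higher tissue at both stages, and its values did not overlap those of TC. Its second probe set gave the same order, with 98.6 and 112 at E12 and 102 and 131 at E14. The 1.21-fold and 1.47-fold differences of the brightest probe set gave a fitted log2 value of 0.42 ± 0.50 (95% interval -0.60 to 1.43, limma adjusted p = 0.78). Centring each array on its median also gave a higher TC+AC value, at 0.23. The sign turned in 2 settings where the median of all genes was lower in TC+AC. It was -0.11 in the values as deposited (median of all genes -0.45) and -0.53 with scaling on hybridization controls (median -0.86). The single pairs as deposited were 0.49 at E12 (median 0.20) and -0.71 at E14 (median -1.09). The E14 over E12 difference was close to 0, at 0.00 ± 0.50 in the fit.

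INHBA had the largest tissue difference of the 7 genes, and it lay at E12. Its brightest probe set read 25.9 in TC and 110.3 in TC+AC at E12, against 63.2 and 68.7 at E14. At E12 the value in TC was close to the background of that array, and TC+AC was 4.26-fold higher. At E14 the tissues were 1.09-fold apart on this probe set, with TC+AC the higher after quantile normalization. Under other scalings TC+AC was lower at E14, with log2 differences of -0.23 centred on medians, -1.05 as deposited and -1.62 on hybridization controls. The medians of all genes in these settings were -0.27, -1.09 and -1.66. The second probe set was below background in TC at E12, where TC+AC was at least 3.07-fold higher, and it read 29.4 in TC and 74.2 in TC+AC at E14, a 2.52-fold difference. Both probe sets thus gave a higher TC+AC value at E12, and they disagreed on the size of the E14 difference. The fitted log2 value was 1.10 ± 0.53 (95% interval 0.02 to 2.19, limma adjusted p = 0.36), and 1.59 with adjusted p = 0.61 for the second probe set when every probe set was tested on its own.

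The direction of the stage difference of INHBA depended on the tissue and, after quantile normalization, on the probe set. The brightest probe set was 2.44-fold higher at E14 in TC and 1.61-fold lower at E14 in TC+AC. The second was higher at E14 in both, by at least 1.56-fold in TC and by 1.28-fold in TC+AC. As deposited, the second was lower at E14 in TC+AC, at 38.2 against 70.9 at E12. The fit gave 0.30 ± 0.53 (limma adjusted p = 0.98).

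Of the receptor genes, only TGFBR1 was measured above background. TGFBR1, the type I receptor kinase gene, read 122 in TC and 104 in TC+AC at E12 and 95.5 and 89.2 at E14. TC was the higher tissue at both stages, by 1.17-fold and 1.07-fold, and the fitted log2 difference was -0.16 ± 0.50 (95% interval -1.18 to 0.85, limma adjusted p = 0.93). The E14 over E12 difference was -0.35 in TC and -0.23 in TC+AC, with a fitted value of -0.29 ± 0.50 (limma adjusted p = 0.98).

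TGFBR2, the type II receptor gene that binds the ligand, was below background on every array. Its brighter probe set read 7.5 in TC and 8.35 in TC+AC at E12 and 0.68 and 1.18 at E14, and the other lay between 0.68 and 1.65. The co-receptor gene TGFBR3, which encodes betaglycan, read 10.8 and 9.6 at E12 and 10.4 and 17.9 at E14 on its probe set, also below background throughout. Both were too dim for the test, no fold is given for them, and a level below background on 1 or 2 probe sets does not show that a receptor was absent.

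LTBP1, which encodes a latent TGF-beta binding protein of the matrix, was covered by 7 probe sets, of which 4 were above background on every array. All 4 were higher in TC+AC at E12, by log2 0.31 to 0.69. At E14 they fell on both sides of 0, from -1.54 to 1.05. The brightest probe set read 1144 in TC and 1418 in TC+AC at E12 and 1117 and 2312 at E14, with TC+AC 1.24-fold and 2.07-fold higher. The second read 725 and 1138 at E12 and 1314 and 1339.5 at E14, so the tissues were level at E14 after quantile normalization. At E14 the second read 1381.6 in TC and 691.8 in TC+AC as deposited, and the brightest read 1182.6 and 1345.3. Scaling on hybridization controls gave the brightest a log2 difference of -0.38 at E14, where the median of all genes was -1.66. After quantile normalization the third and the fourth read 108 and 145, and 70.6 and 114, at E12. At E14 they read 313 and 135, and 323 and 111, which put TC 2.32-fold and 2.92-fold above TC+AC.

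The LTBP1 probe sets also differed in the change within TC. From E12 to E14 the 4 probe sets ran from log2 -0.03 to 2.20 in TC and from -0.10 to 0.71 in TC+AC. The fourth probe set was 4.58-fold higher at E14 than at E12 in TC and 1.03-fold lower in TC+AC. The fit on the brightest probe set gave a tissue difference of 0.68 ± 0.50 (95% interval -0.34 to 1.70, limma adjusted p = 0.60), and the third and the fourth gave -0.40 and -0.43 when tested on their own. Where the probe sets lie along the transcript was not used here. The E14 arrays also differed in their 3' over 5' ratios, at 1.99 in TC and 7.48 in TC+AC for beta-actin, and the part of this in the LTBP1 values was not tested.

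LTBP2, a related gene whose product binds fibrillin microfibrils and is not known to hold latent TGF-beta, was higher in TC+AC on both of its probe sets that were above background on every array. The brightest read 197 in TC and 310.2 in TC+AC at E12 and 108 and 255 at E14. The second read 92.0 and 223 at E12 and 71.3 and 187 at E14. After quantile normalization, both TC+AC values were above both TC values on each. The differences were 1.58-fold and 2.36-fold on the brightest probe set, whose name marks it as open to cross-hybridization, and 2.42-fold and 2.62-fold on the second. As deposited, TC+AC at E14 was below TC at E12 on both, at 122.9 against 217.3 and at 90.3 against 99.9. On the brightest it was also below TC at E14, which read 125.5. The fitted value was 0.95 ± 0.50 (95% interval -0.07 to 1.97, limma adjusted p = 0.42), and the second probe set tested on its own gave 1.33 with adjusted p = 0.61.

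The dimmer LTBP2 probe sets held both directions. The fourth, read at 34.4 in TC and 19.5 in TC+AC at E12, was 1.76-fold lower in TC+AC there and at least 5.44-fold higher at E14, where TC was below background. The third was at least 2.05-fold higher in TC+AC at E12 and 1.11-fold higher at E14. On the brightest probe set LTBP2 had a log2 difference between E14 and E12 of -0.86 in TC and -0.28 in TC+AC (-0.57 ± 0.50, limma adjusted p = 0.93).

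TGFBI encodes a secreted matrix protein that binds collagens and integrins and is induced by TGF-beta in many cells. Its probe set read 1242 in TC and 1255 in TC+AC at E12, which were level, and 694 and 962 at E14. Both E14 values were below both E12 values. The tissue difference was 0.02 at E12 and 0.47 at E14 on the log2 scale (0.24 ± 0.50, 95% interval -0.78 to 1.26, limma adjusted p = 0.89). TGFBI had the largest fitted stage difference of the 7 genes, with -0.84 in TC and -0.38 in TC+AC (-0.61 ± 0.50, 95% interval -1.63 to 0.41, limma adjusted p = 0.92).

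**Figure D2:**
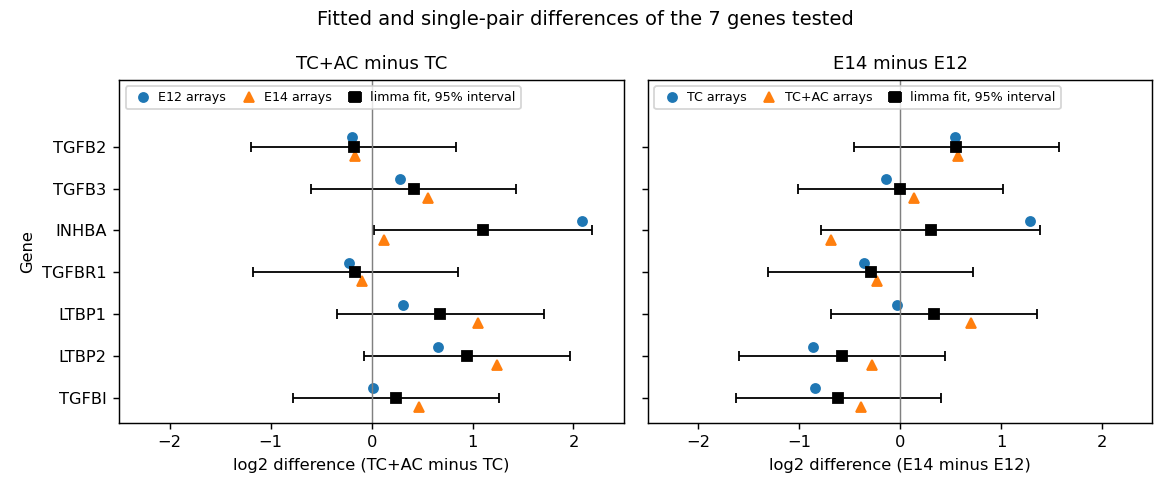
Log2 difference between tissues (left) and between stages (right) for the 7 genes tested: squares and bars are the limma fit on 4 arrays with its 95% interval, circles and triangles the 2 single pairs of arrays. Every interval includes 0 except that of INHBA for tissue, 0.02 to 2.19, whose adjusted p was 0.36.

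Seen together after quantile normalization, 5 of the 7 genes tested were higher in TC+AC at both stages and 2 lower. These counts are for the brightest probe sets, against 31.1% and 29.4% of all genes tested. The median tissue difference of the 7 was 0.28 at E12 and 0.47 at E14, beside -0.0019 and 0.05 over all genes tested. At E12 1 gene, INHBA, was at least 2-fold higher in TC+AC and 0 were 2-fold lower (4.46% and 3.28% of all genes). At E14 LTBP1 and LTBP2 were at least 2-fold higher on their brightest probe sets and 0 genes lower (20.3% and 15.6% of all genes). The third and the fourth LTBP1 probe sets were 2.32-fold and 2.92-fold lower in TC+AC at E14. As deposited, of the 5 genes higher at both stages, LTBP1 stayed higher at E14 (0.19). TGFB3 (-0.71), INHBA (-1.05), LTBP2 (-0.030) and TGFBI (-0.69) were lower there, beside a median of -1.09 over all genes tested. For stage, 0 of the 7 passed (0 at an unadjusted p under 0.05, limma) where 0.256% of all genes did. On the brightest probe sets INHBA in TC was the single pair at least 2-fold apart, higher at E14. By this much 8.3% of all genes were higher in TC and 14.1% lower, and 12.6% were 2-fold apart in TC+AC. The third and the fourth LTBP1 probe sets were 2.89-fold and 4.58-fold higher at E14 in TC. The 2 comparisons within a stage and the 2 within a tissue share arrays and had no replicate check.

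**Figure D3:**
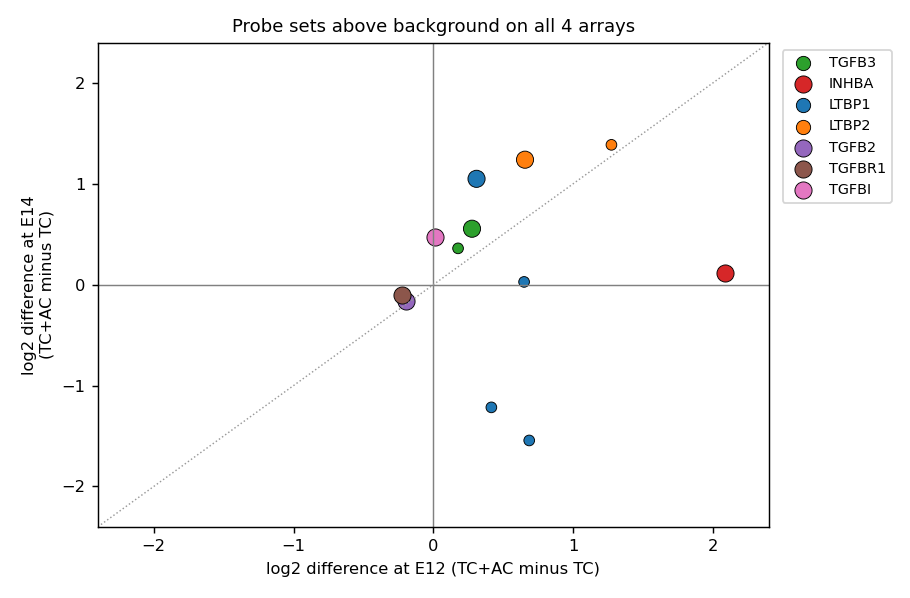
Log2 difference between TC+AC and TC at E12 (horizontal) and E14 (vertical) for the 12 probe sets above background on all 4 arrays, coloured by gene, with the probe set that stands for a gene drawn larger and equality as a dotted line. The 2 TGFB3 probe sets lie close together. The 2 LTBP2 probe sets lie apart at E12 (0.66 and 1.275) and closer at E14 (1.24 and 1.39), whereas the 4 LTBP1 probe sets span -1.54 to 1.05 at E14.

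Of the 12 probe sets above background on every array, 10 were higher in TC+AC at E12 and 8 at E14 after quantile normalization. LTBP1 gave 4 of the 10, and the share over all probe sets of the series was not counted. Probe sets of 1 gene share its transcript and are not independent of each other. The 2 that turned sign between the stages after this normalization were the third and the fourth of LTBP1. Of the 12, only the brightest of LTBP1 (1345.3 against 1182.6) and the second of LTBP2 (90.3 against 83.1) were higher in TC+AC at E14 as deposited. The others were lower there, both TGFB3 probe sets included, at 256.4 against 420.3 and at 63.7 against 118.2. The median of all genes tested at E14 was -1.09 in that setting.

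Other genes of the pathway were read from lists by role, 76 entries of which 62 were found and 46 were bright enough to test. For tissue, 2 of the 46 passed, both higher in TC+AC (0.743% of all genes passed as higher and 0.73% as lower). One was FMOD, whose product fibromodulin binds collagen and can bind TGF-beta. It read 105 in TC and 652 in TC+AC at E12 and 411 and 1981 at E14, so TC+AC was 6.21-fold and 4.82-fold higher (2.45 ± 0.50, limma adjusted p = 0.0051). The other was SCX, a tendon transcription factor gene known to respond to TGF-beta, at 101 and 301 at E12 and 35.5 and 497 at E14 (2.69 ± 0.54, limma adjusted p = 0.0046). Both stayed higher in TC+AC under each of 12 other settings, at 1.47 to 3.44 for FMOD and 1.75 to 3.44 for SCX, but each call was lost in 8 of the 12, with limma adjusted p up to 0.999. Leaving the stage term out of the model was enough to lose both (limma adjusted p = 0.36 for FMOD and 0.17 for SCX). Both were also lost without either TC+AC array, in fits that leave out the stage term as well and take the spread from the other tissue alone, so that the change between stages counts as error. In fits of that kind FMOD was not called without TC at E12 (1.47), nor SCX without TC at E14 (1.93). For stage, 0 of the 46 passed in either direction. The median tissue difference over the 46 genes was 0.15 at E12 and 0.59 at E14.

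Among other ligands, the annotation's TGFB1 read 81.3 in TC and 80.8 in TC+AC at E12 and 43.8 and 78.6 at E14. INHBB, which encodes a second activin subunit, read 57.6 and 72.8 at E12 and 24.2 and 44.5 at E14. For both, the TC value at E14 was the lowest of the 4, and neither passed (limma adjusted p = 0.79 and 0.66). A dimmer INHBB probe set was above background in both TC+AC samples, at 50.7 and 47.9, and below it in both TC samples, at 2.15 and 0.88. Of the 3 other receptor genes tested, 0 passed. The TGF-beta co-receptor gene ENG, also an endothelial gene, stood at a log2 difference of 0.32 at E12 and 1.26 at E14, and the activin receptor gene ACVR2A had -0.65 and -0.17.

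Of 10 tested genes for latency and activation, 0 passed, and their median fitted tissue difference of 0.72 was the highest of the 6 lists, beside 0.02 over all genes. PLAU, which encodes the protease urokinase, had 1.54 at E12 and 1.05 at E14 (1.29 ± 0.50, limma adjusted p = 0.21), though its other bright probe set had -0.23 and 0.37. FBN1, the gene of the fibrillin to which LTBPs attach, read 46.8 in TC and 81.3 in TC+AC at E12 and 53 and 154 at E14 (1.17 ± 0.50, limma adjusted p = 0.28). A second FBN1 probe set, below background in TC at E12, had 0.21 at E14.

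Of the 5 genes tested for extracellular binders, FMOD was the call. The small proteoglycan gene BGN was on the low side in TC+AC, at -0.66 and -2.52 (-1.59 ± 0.53, limma adjusted p = 0.13). FST, which encodes the activin antagonist follistatin, had tissue differences of -0.50 and 0.88 and read 105 in TC and 74.1 in TC+AC at E12 but 19.2 and 35.2 at E14 (stage -1.76 ± 0.51, limma adjusted p = 0.22). The 14 tested genes for SMADs and intracellular factors had a median of 0.02. SMAD3, which carries the signal of TGF-beta and activin, read 211 and 402 at E12 and 173 and 381 at E14, 1.91-fold and 2.20-fold higher in TC+AC (1.04 ± 0.50, limma adjusted p = 0.36). SMAD2, its close relative, had -0.08 and -0.64, and the phosphatase gene PPM1A had -0.08 and -1.50.

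The 12 response genes tested had a median of 0.55, with SCX the call among them. BHLHE40, a transcription factor gene, had 0.97 at E12 and 1.69 at E14 (1.33 ± 0.50, limma adjusted p = 0.20). SNAI2, which encodes the repressor Slug, had -0.68 and -1.66 (-1.17 ± 0.50, limma adjusted p = 0.28).

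**Figure D4:**
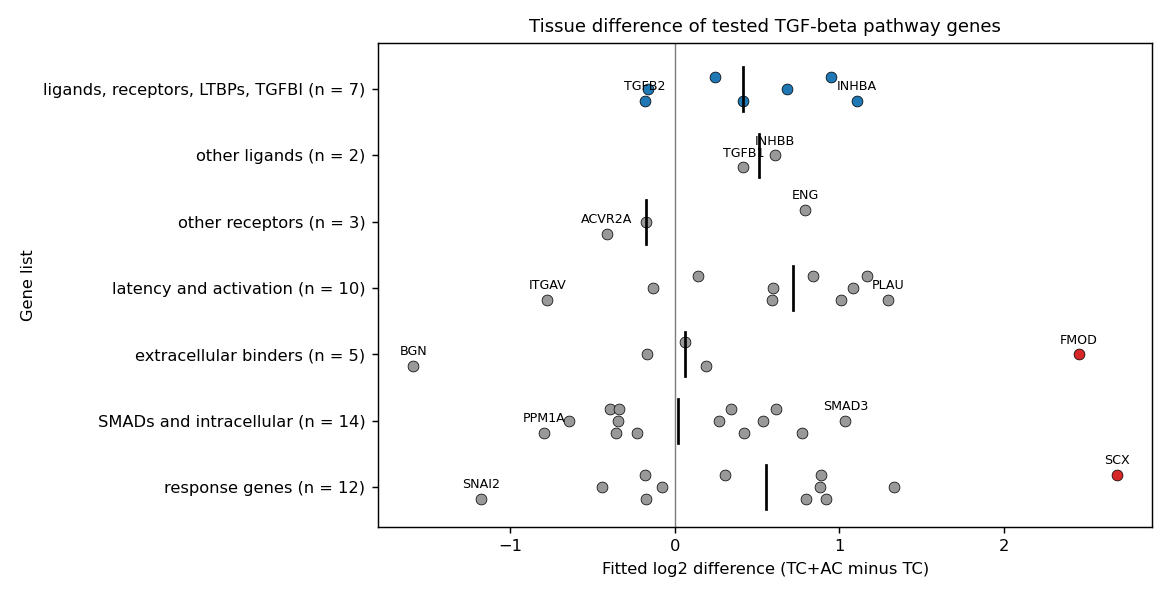
Fitted log2 difference between TC+AC and TC for each tested gene by list, with the list's median as a black bar and genes that passed an adjusted p of 0.05 in red. FMOD and SCX are the genes past the test, and the 7 genes of the top row lie between -0.18 and 1.10.

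Markers of tissues that a dissection can carry moved between these arrays. Of the 5 tendon and fibrous markers, SCX passed as higher in TC+AC. For TNMD the E12 pair gave log2 1.36 and the E14 pair 2.34. COL3A1 had 0.52 and 1.32 on its brightest probe set. After quantile normalization the brightest probe sets of INHBA, LTBP1, LTBP2, TGFB3 and TGFBI shared this direction with TNMD and COL3A1. So did 31.1% of all genes tested, while TGFB2 and TGFBR1 went the other way. The other COL3A1 probe sets above background on every array fell on both sides of 0 at E14, at 2.77, -0.09, -0.91 and -1.13. COL1A1 had -0.23 and -0.11, and DCN had 0.34 and -0.22. The summed intensity of the 5 tendon and fibrous markers ran from 17864 in TC at E14 to 20857 in TC+AC at E14. In TC at E14, where INHBB and TGFB1 were lowest, the summed muscle markers were 95.3 against 406 to 527 on the other arrays, with 2 of the 4 found above background. The endothelial sum was 207 against 354 to 540, and the blood sum was 9002 against 17523 to 18430. These sums are carried by their brightest probe sets, CDH5 for endothelium and the globins HBA1 and HBAD for blood. The brightest probe sets of TIE1, HBBR and CSF1R in these lists were also lowest in TC at E14. They read 5.5 (below background), 28.6 and 81.25 there. A second CSF1R probe set was not, at 58.55 there and 32.4 in TC+AC at E14. PECAM1 and KDR, dimmer markers, were not lowest in TC at E14, at 29.8 and 26.1. PECAM1 was below background in TC+AC at E14, and KDR read 22.5 in TC+AC at E12. PTPRC read 22.9 in TC at E14 and was below the higher background in TC+AC at E14, which leaves their order unknown. MYH1E, a muscle myosin gene, was below background on every array. The part of these tissues in the values of the TGF-beta genes was not tested. In pieces of tissue, fewer cells of a type and less RNA per cell cannot be told apart.

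The genes with the pattern likest to INHBA over the 4 arrays, by Euclidean distance of log2 values centred on each gene's mean, were LHX8, CREB5 and CCDC102A, at distances of 0.25 to 0.30, beside a median of 1.75 over 7804 genes. LHX8, a LIM homeobox gene, read 29.1 in TC and 126 in TC+AC at E12 and 80.8 and 68.7 at E14. It was thus highest in TC+AC at E12, like the brightest probe set of INHBA. After quantile normalization the second INHBA probe set was highest in TC+AC at E14, at 74.2 against 57.95 in TC+AC at E12. As deposited it was highest in TC+AC at E12, at 70.9 against 38.2 in TC+AC at E14. CREB5, a transcription factor gene, read 14.4 and 52.4 at E12 and 27.9 and 38.6 at E14, with the first of these below background. For TGFBI the likest genes were DYNLT1, SMYD5 and INTS6, at distances of 0.04 to 0.07 beside a median of 0.99. DYNLT1, a dynein light chain gene, read 532 and 537 at E12 and 308 and 420 at E14. Likeness over 4 arrays is given with no test, and the second probe sets of SMYD5 and INTS6 did not follow their first.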

How the data were processed

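Total RNA (5 µg a sample, per the labels) was biotin labelled and hybridized to 4 Affymetrix chicken arrays. The deposited table held linear intensities for 38535 probe sets; how the authors summarized or scaled these intensities: not given in the sources used here. A total of 96 control probe sets was set aside, and 38439 were quantile normalized, floored at the 20th percentile (4.28) and taken to log2 with R 4.3.3 and limma 3.58.1. Figures used Python 3.11.15 and matplotlib 3.10.9. Symbols came from the platform annotation, in which, controls included, 27178 probe sets carried 1 symbol, 177 several and 11180 none. The probe set with the highest mean stood for each of 13009 genes, and the dimmest 40% were left out, which left 7805. Tissue and stage were tested in 1 additive limma model with Benjamini-Hochberg adjustment over the 7805. The model was run on data simulated with independent noise and an additive tissue effect. Such data cannot show how it behaves where the stages disagree or 1 array stands apart. Where 1 side of a pair was below background, the background took its place and the fold is a lower bound. Probe sets are numbered by mean brightness within a gene. The 9 genes and the lists were chosen with earlier results of these data known. Genes named from the lists are those that passed and the 2 per list with the largest fitted tissue difference; SMAD2 and the single markers outside those lists were added after their values were seen. The scaling, the filter on dim genes, the floor, the choice of probe sets, the second factor of the model and single arrays were varied.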

Additional observations from a re-analysis of the deposited data

Results flagged for a closer look

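Differences of opposite sign between the 2 stages or the 2 tissues, on probe sets above background on all 4 arrays, were found for 3 of the 9 genes. Each rests on 1 array a group, and none of these differences between differences was tested. For tissue, the third LTBP1 probe set gave log2 values of 0.42 for E12 and -1.22 for E14, and the fourth had 0.69 and -1.54. For stage, from E12 to E14, the brightest probe set of INHBA had 1.29 in TC and -0.68 in TC+AC. That of TGFB3 had -0.14 and 0.14, and that of LTBP1 -0.035 and 0.71. The third LTBP1 probe set had 1.53 in TC and -0.10 in TC+AC, and the fourth 2.20 and -0.036. On the brightest probe sets, 0 of the 7 genes tested had tissue differences of opposite sign at the 2 stages, against 39.3% of all genes tested. Stage differences of opposite sign in the 2 tissues were found for 3 of the 7, against 48.7%.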

How the results depend on the processing

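The count of TGF-beta genes called was 0 for tissue and for stage under every alternative run. The count over all genes moved widely. For tissue it was 115 in the main setting, 32 as deposited, 24 scaled on hybridization controls, 0 with no dim filter (715 at an unadjusted p under 0.05), 217 with 60% of genes left out, 29 with a gene's probe sets averaged, 0 with every probe set on its own (1334) and 12 with stage left out. With 1 array left out, in models without the second factor where the lone array is assumed to vary like the other group, it ran from 0 to 883 for tissue: 0 without either TC+AC array (570 at an unadjusted p under 0.05 with E12 left out, 213 with E14 left out), 65 without the E14 array of TC and 883 without its E12 array. For stage it was 20, then 0 as deposited (370), 68 centred on medians, 0 on hybridization controls (76), 0 with no dim filter (567), 32 with 60% left out, 1 with probe sets averaged, 0 with every probe set (810), 0 with tissue left out (235) and 0 to 1 with 1 array left out. Of the other pathway genes, 2 were called for tissue (FMOD and SCX), and the same 2 with median centring, 60% of genes left out or a lower floor. The count was 0 as deposited (4 at an unadjusted p under 0.05), on hybridization controls (2), with no dim filter (5), with probe sets averaged (8), with every probe set (8) and with stage left out (9). It ran from 0 to 6 with 1 array left out, 0 without either TC+AC array, 1 (FMOD) without TC at E14 and 6 (BGN, FBN3, ITGAV, SCX, SNAI2 and TAGLN) without TC at E12. For stage it was 0, and 1 with median centring (FST, -1.92). The cause was not tested.

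Scaling moved all genes: the median tissue difference at E14 was -1.09 as deposited and -1.66 on hybridization controls. As deposited, signs turned for tissue in TGFB3 (-0.11) and TGFBI (-0.25), for LTBP2 at E14 (-0.030), and for stage in TGFB2 (-0.14), TGFB3 (-0.71), INHBA (-0.25) and LTBP1 (-0.30). On hybridization controls they turned for tissue in TGFB3 (-0.53), LTBP1 (-0.075, and -0.38 at E14) and TGFBI (-0.66), for LTBP2 at E14 (-0.60) and for stage in TGFB3 (-0.40), as they did there with median centring (-0.39). All of these lay above the median of all genes in the same setting. The single pairs listed so far are those at least 2-fold in the main setting, and smaller ones turned as well. As deposited, these included TGFB3 (-0.71), INHBA (-1.05) and TGFBI (-0.69) for tissue at E14. For stage in TC+AC they included TGFB2 (-0.87), TGFB3 (-1.31) and LTBP1 (-0.45). On hybridization controls the same pairs turned. With median centring INHBA also turned for tissue at E14 (-0.23), and TGFB2 (-0.074) and TGFB3 (-0.51) turned for stage in TC+AC. With 1 array left out, the tissue values that turned sign ran from -0.46 to 0.11 for TGFB2 (turned without TC+AC at E12 and, at 0.09, without TC at E14), from -0.34 to 0.015 for TGFBR1 (turned without TC at E12) and from -0.18 to 0.66 for TGFBI (turned without TC at E14). The stage values that turned ran from -0.27 to 0.28 for TGFB3 (turned without TC+AC at E14 and, at -0.13, without TC at E12), from -0.74 to 1.35 for INHBA (without TC at E12), from -0.19 to 0.86 for LTBP1 (without TC+AC at E14) and from -1.19 to 0.047 for LTBP2 (without TC at E14). No paired analysis was possible because each group holds 1 array and so no replicate numbers to pair on. The stage term of the model already compares the tissues within a stage, and the setting with stage left out drops it. Signal limited TGFBR2 and TGFBR3, below background on every array.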
